A study of Mus musculus with 230 samples.

Results

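The 10 genes described here, Csf1, Bdnf, Fgf2, Fst, Pappa2, Inhbb, Lif, Il6, Artn and Cx3cl1, encode proteins that leave the cell and act on other cells, or that control such proteins outside the cell. They were chosen by name, as 10 of the 53278 genes in the deposited count table, and all 10 were found there. Their transcripts were followed in mouse dorsal root ganglion sensory neurons, whose cell bodies sit beside the spinal cord and whose axons run in the sciatic nerve. All animals were C57BL/6 X CAST/Ei crosses, and the L4 and L5 ganglia were dissociated with enzymes before neurons were picked by hand. Neurons are labelled as injured or intact in a study in which the sciatic nerve was injured by surgery. The labels used here do not give the form of the injury, the interval after it, the animal of each library, or whether intact neurons came from operated mice. Low-input libraries made from several neurons number 18, in 6 groups of 3: intact and injured at 1 month, at 8 months and at 12 months of age (1 year in some of the labels). Single-neuron libraries number 69, of which 18 were labelled intact and 21 injured at 1 month, and 8 intact and 22 injured at 1 year. Libraries were made from cytoplasm by SMART-seq2. Nothing labels them as coming from separate mice, so p-values measure the spread between these libraries, which may be technical. The bisulfite libraries were not analysed here.

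An axotomised sensory neuron changes what it releases as well as how it grows. CSF1 is the ligand of CSF1R, the receptor on microglia and macrophages, and Csf1 is known to be switched on in sensory neurons after peripheral nerve injury. BDNF signals through TrkB at central synapses, FGF2 through FGF receptors, and LIF and IL6 through receptors that share gp130. ARTN is the GDNF-family ligand of the receptor GFRA3. Inhbb encodes the subunit that dimerises into activin B, and FST (follistatin) binds activins and keeps them from their receptors. PAPPA2 is a secreted protease that cleaves IGF-binding proteins and so frees IGF. CX3CL1 (fractalkine) is a chemokine made by resting neurons and read by CX3CR1 on microglia.

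Promoter sequence is shown first for 4 of the genes, because 2 of them, Csf1 and Pappa2, stood apart between injured and intact libraries at every age, and the other 2, Il6 and Lif, carry the letters of an AP-1 element, the type of site bound by factors that nerve injury induces. Each window holds the 250 bases before the RefSeq transcription start on GRCm38.p6, written 5′ to 3′ along the transcript, and capitals mark a match to one of the motifs searched. The Csf1 window is chr3:107760470-107760719 and the Pappa2 window chr1:158958176-158958425, both on the minus strand. The Il6 window is chr5:30012864-30013113 and the Lif window chr11:4257318-4257567, both on the plus strand.
Csf1: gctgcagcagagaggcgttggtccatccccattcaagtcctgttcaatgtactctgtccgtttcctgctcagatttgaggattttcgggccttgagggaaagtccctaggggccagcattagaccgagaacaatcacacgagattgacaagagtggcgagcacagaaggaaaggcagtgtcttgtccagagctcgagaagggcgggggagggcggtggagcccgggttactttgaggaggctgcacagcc
Pappa2: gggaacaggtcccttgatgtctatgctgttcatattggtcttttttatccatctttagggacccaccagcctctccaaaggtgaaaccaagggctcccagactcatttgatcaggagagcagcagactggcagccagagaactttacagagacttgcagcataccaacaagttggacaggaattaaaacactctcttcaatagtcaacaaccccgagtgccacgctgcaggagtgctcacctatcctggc
Il6: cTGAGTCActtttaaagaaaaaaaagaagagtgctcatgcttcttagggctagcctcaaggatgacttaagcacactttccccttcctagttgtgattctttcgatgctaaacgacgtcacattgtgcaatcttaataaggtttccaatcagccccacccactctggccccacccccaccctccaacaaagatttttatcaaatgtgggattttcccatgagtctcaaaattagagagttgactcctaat
Lif: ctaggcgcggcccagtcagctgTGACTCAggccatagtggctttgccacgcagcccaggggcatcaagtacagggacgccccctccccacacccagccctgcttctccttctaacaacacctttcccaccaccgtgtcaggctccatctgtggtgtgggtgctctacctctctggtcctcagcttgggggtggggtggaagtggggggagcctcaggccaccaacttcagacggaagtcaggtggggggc
Both strands were searched for AP-1 (TGACTCA), a cAMP response element (TGACGTCA), a C/EBP-ATF composite element (TGATGCAA) and a STAT element (TTCNNNGAA), none of which overlapped another in these windows. The Il6 match begins 249 bases before the start and the Lif match 228 bases before it. An AP-1 match was present in 4.46% of all 32851 windows of this kind, a cAMP response element in 1.55%, a C/EBP-ATF element in 0.791% and a STAT element in 7.02%. Csf1, Pappa2, Fgf2, Inhbb, Artn and Cx3cl1 held none of these letters in their window. Bdnf has 7 windows for its alternative starts, and 1 of them, before the first start, held a STAT match 122 bases upstream. The Pappa2 start in RefSeq lies 22315 bases inside the gene as the deposited table outlines it, so its window is that of an internal start. A match is a description of letters, and Fst is named here without a window.

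Values below are CPM, read-pair counts scaled to the TMM-adjusted size of each library, unless per-kilobase levels are named. Gene counts per low-input library ranged from 7531967 to 19443627. A single feature, CT010467.1 on chromosome 17, took 29.4% to 59.7% of them in injured and 40.4% to 93.8% in intact libraries. Intact 12-month replicate 2 had the fewest counts outside that feature, 770328. Spike-ins took 2% to 26.9% of all counts in intact libraries (median 14.4%) and 1.2% to 11.6% in injured ones (median 2.14%). Of 6 injury genes that served as the check of the labels, 5 rose in injured low-input libraries and Gap43 did not pass (adjusted p = 0.139), with groups that overlapped. Sprr1a separated the groups: this marker of axotomised neurons lay between 60.4 and 1078 CPM in the 9 injured libraries and between 0 and 0.651 CPM in the 9 intact ones. The lowest injured value, 60.4, belonged to injured 8-month replicate 1, which also had Jun at 45.1 CPM, below 115.8 and 131.7 CPM in intact libraries of 8 and 12 months. The single cells matched their labels less well. Among cells with at least 500000 counts outside the dominant feature, Sprr1a reached at most 8.39 CPM in the 15 cells labelled injured at 1 year, and at most 2.4 CPM in the 7 cells labelled injured at 1 month whose names begin with L5. The 8 such cells whose names begin with L4 had a median of 3530 CPM. Of the shallower cells labelled injured at 1 year, cell 15 held Sprr1a at 1550 CPM.

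Injury was first compared across the 3 ages together. Csf1, Fst and Pappa2 rose in injured neurons, and none of those tested fell. Transcripts of Bdnf, Fgf2, Inhbb and Cx3cl1 were detected but did not pass the test. Lif, Il6 and Artn were too scarce to be tested. The 3 called genes are 3 of the 7 that passed the filter on low counts; of all 14212 genes tested, 6.18% were called, 5.11% higher and 1.07% lower in injured neurons (edgeR quasi-likelihood test, mean of the injury differences at 3 ages, Benjamini-Hochberg adjusted p below 0.05). The filter admits a gene that is high in 1 group only, so the share among the genes that passed it is not read as evidence about the 10.

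Csf1 (chr3:107741048-107760469, minus strand) was the one of the 3 with a clear level in resting neurons. In replicates 1, 2 and 3 it measured 2.25, 1.64 and 3 CPM in intact neurons at 1 month and 38.7, 17.9 and 30.2 CPM in injured neurons. At 8 months the intact libraries held 4.73, 12.2 and 0.328 CPM and the injured ones 36, 38 and 21.7 CPM. Intact 12-month neurons gave 0.0855, 1.80 and 4.12 CPM, the first 2 of these from 1 count each, against 64.5, 65 and 53.2 CPM after injury. Every injured library exceeded every intact library of its own age, and also every intact library of the other ages. Csf1 and Pappa2 were the 2 of the 10 genes without overlap at all 3 ages. Of the genes tested, 1.83% had the injured libraries higher without overlap at all 3 ages. The mean over 9 injured libraries was 40.6 ± 17.1 CPM (SD, n = 9) against 3.35 ± 3.66 CPM (SD, n = 9) in intact ones. The fitted change was 3.74 ± 0.55 on the log2 scale (SE; 95% interval 2.58 to 4.90; edgeR adjusted p = 0.000634), a 13.3-fold increase. Without intact 12-month replicate 3 it was 4.81 (adjusted p = 0.000437).

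Fst (chr13:114452262-114458949, minus strand) went from nearly nothing to a level close to that of Csf1. The 9 intact libraries together held 12 counts of it, 0, 1 and 6 at 1 month, 0, 0 and 5 at 8 months, and none at 12 months. Injured neurons gave 35.7, 13.7 and 22.6 CPM at 1 month and 35.3, 55 and 26.1 CPM at 12 months. At 8 months they gave 0.277, 22.8 and 11.7 CPM. The exception is injured 8-month replicate 1, with 3 counts of Fst, which overlaps the intact libraries of that age and is the injured library with the least Sprr1a. The fitted change over the ages was 8.56 ± 0.98 on the log2 scale (SE; 95% interval 6.45 to 10.7; edgeR adjusted p = 0.000154). That estimate averages in an age with no intact count and so depends on the prior count of the fit; the ratio of pooled CPM over all ages was 237, with a 95% counting interval of 135 to 459. The fitted change was 9.22 without intact 1-month replicate 3 (adjusted p = 0.000298) and 9.93 without intact 8-month replicate 3 (adjusted p = 0.000445).

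Pappa2 (chr1:158711727-158980490, minus strand) followed the same pattern. Intact libraries held 0.150, 0.820 and 0.403 CPM at 1 month, no count at 8 months, and 0, 0 and 1.09 CPM at 12 months. Injured libraries held 40.6, 8.84 and 17.4 CPM at 1 month and 2.22, 33.2 and 18.1 CPM at 8 months. At 12 months they held 12.2, 27.5 and 39.5 CPM. The lowest injured value, 2.22 CPM, again belonged to 8-month replicate 1, and lay above every intact library. The fitted change was 7.50 ± 0.83 on the log2 scale (SE; 95% interval 5.74 to 9.27; edgeR adjusted p = 9.9e-05), and the pooled ratio over all ages 65.1, with a counting interval of 47.3 to 92.2. As for Fst, the fitted change averages in an age with no intact count, 8 months, and so depends on the prior count. Without intact 12-month replicate 3 the fitted change was 9.31 (adjusted p = 0.000468).

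These 3 calls were kept when intact 1-month replicate 2, intact 12-month replicate 2 and injured 8-month replicate 1, which stand apart in depth, composition or injury genes, were left out together, with log2 changes of 3.65 for Csf1, 8.55 for Fst and 7.91 for Pappa2. They were lost when the share of CT010467.1 entered the model as a covariate: the log2 changes were then 5.72 (adjusted p = 0.113), 5.91 (adjusted p = 0.326) and 5.65 (adjusted p = 0.248). With that covariate 11 genes in all were called in place of 878. The share had a median of 65.7% in intact and 39% in injured libraries, so its part in the result and that of injury cannot be fully told apart. Spike-in scaling moved the median log2 change of all genes up by 2.86, and with it 13492 of 13493 called genes were higher in injured neurons, against 726 of 878 with TMM; Csf1, Fst and Pappa2 were called with both.

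**Figure D1:**
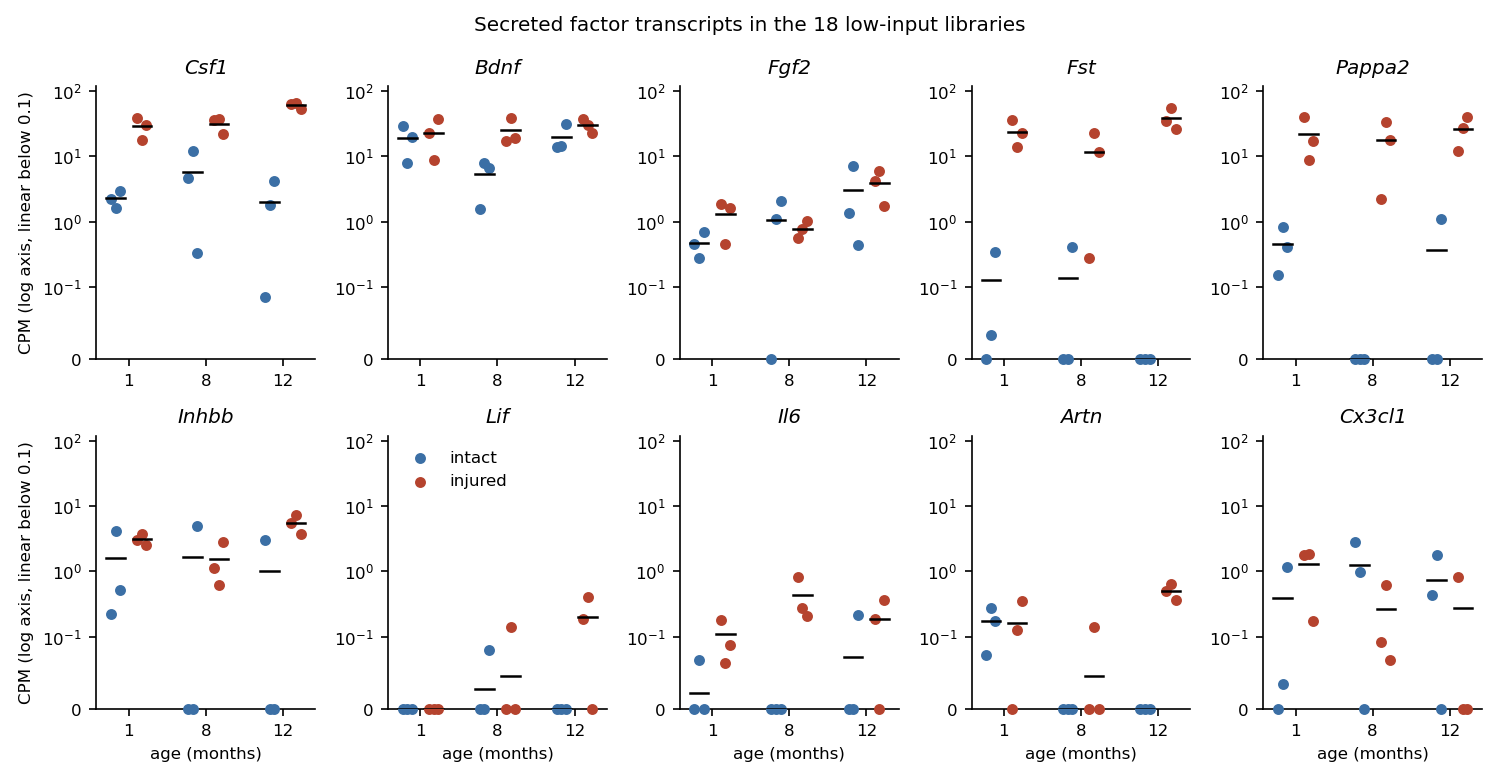
CPM of the 10 genes in each of the 18 low-input libraries (log axis, linear below 0.1) by age in months, intact in blue and injured in red, 3 libraries a group; black bars are group means. Csf1 and Pappa2 have every injured library above every intact one at each age, Fst does so at 1 and 12 months, and Lif, Il6 and Artn stay under 1 CPM throughout.

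Bdnf (chr2:109674700-109727007, plus strand), a neurotrophin that a part of the resting sensory neurons makes, was present in every library. Intact neurons held 29, 7.79 and 20.2 CPM at 1 month, 1.54, 7.99 and 6.65 CPM at 8 months and 13.7, 14.4 and 31.9 CPM at 12 months. In injured neurons it measured 23.1, 8.65 and 37.7 CPM at 1 month, 17, 39.1 and 19 CPM at 8 months and 37.4, 29.9 and 22.6 CPM at 12 months. The groups overlapped at 1 and 12 months and stood apart at 8 months, the age at which the intact mean was lowest (5.39 ± 3.40 CPM, SD, n = 3). The log2 change over all ages was 1.02 ± 0.36 (SE; 95% interval 0.27 to 1.76), with an unadjusted p of 0.0108 and an edgeR adjusted p of 0.103, so it did not pass. Without the filter on low counts the adjusted p was 0.00205.

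Fgf2 (chr3:37348346-37410108, plus strand), a heparin-binding growth factor, was low in both conditions. Its group means ran from 0.471 CPM in intact 1-month neurons to 3.95 CPM in injured 12-month neurons, and the groups overlapped at every age. Single libraries held 0.273 to 7.22 CPM, or none, in intact neurons, the highest of them intact 12-month replicate 2 from 4 counts. The log2 change was 0.65 (95% interval -0.68 to 1.97; edgeR adjusted p = 0.618).

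Inhbb (chr1:119415465-119422248, minus strand), the activin B subunit, was scattered among the intact libraries. Intact 1-month replicates held 0.225, 4.13 and 0.519 CPM, intact 8-month replicates 0, 0 and 4.92 CPM and intact 12-month replicates 2.99, 0 and 0 CPM. After injury the values were closer together, 3.02, 3.78 and 2.56 CPM at 1 month and 5.46, 7.37 and 3.79 CPM at 12 months, with 1.11, 0.624 and 2.86 CPM at 8 months. Only at 12 months did the groups not overlap. The log2 change was 0.93 (95% interval -0.79 to 2.65; edgeR adjusted p = 0.572). Without intact 8-month replicate 3, which held all 60 intact counts of that age, the log2 change was 3.42 and passed (adjusted p = 0.0407).

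Cx3cl1 (chr8:94772009-94782427, plus strand) had no common direction. Its pooled CPM was 4.01 times the intact level at 1 month, 0.239 times at 8 months and 0.781 times at 12 months, with group means between 0.262 and 1.28 CPM and overlapping groups at each age. The log2 change was -0.34 (95% interval -2.60 to 1.91; edgeR adjusted p = 0.906). Scaling by the spike-ins gave 2.63 instead (adjusted p = 0.0175), below the shift of the median gene.

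The cytokines Lif (chr11:4257557-4272514, plus strand) and Il6 (chr5:30013114-30019981, plus strand) and the neurotrophic ligand Artn (chr4:117926162-117929763, minus strand) did not pass the filter. Lif had 1 count over the 9 intact libraries and 12 over the 9 injured ones, 10 of these at 12 months; the ratio of pooled CPM was 9.96, with a 95% counting interval of 1.47 to 426. Il6 had 3 counts in intact and 29 in injured libraries, a ratio of 8.02 (counting interval 2.49 to 41.2). Its counts were 0, 0 and 0 in intact and 9, 4 and 3 in injured neurons at 8 months, where the pooled level was at least 4.17-fold higher, taking a floor of 3 counts for the 3 intact libraries together. Artn had 12 counts in intact libraries, all at 1 month, and 32 in injured ones, 24 of them at 12 months in replicates of 8, 11 and 5 counts; with no intact count at that age, its 12-month level was at least 2.88-fold higher against the same floor. Intervals and floors cover counting error only, and counts of PCR-amplified reads are not independent molecules. With no filter, edgeR gave adjusted p = 0.206 for Il6, 0.305 for Artn and 1.00 for Lif over the ages.

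The ages were then tested one at a time, with 3 libraries against 3. At 1 month Fst was the single gene of the 10 called (log2 7.51 ± 1.38, SE; edgeR adjusted p = 0.0431), where 0.232% of all genes were called, all of them higher in injured neurons. The call did not hold with the replicate number as a block (log2 7.60, adjusted p = 0.0586), a fit that matters at this age because same-numbered 1-month libraries deviated together. It was lost in 15 of 28 alternatives, among them the leaving out of any 1 of the 6 libraries of that age; without intact replicate 2 the log2 change was 6.93 (adjusted p = 0.299), and without intact replicate 3 it was 9.53 (adjusted p = 0.12). Pappa2 (log2 5.49 ± 1.09, adjusted p = 0.0608) and Csf1 (log2 3.66 ± 0.90, adjusted p = 0.183) did not pass, though DESeq2 called both (adjusted p = 1.21e-05 and 0.00403). Pappa2 also passed without injured 8-month replicate 1 (adjusted p = 0.0148), and without intact 8-month replicate 1 (0.0387), intact 8-month replicate 3 (0.0415) or intact 12-month replicate 1 (0.0467). Csf1 passed without intact 8-month replicate 3 (adjusted p = 0.0286). Csf1, Fst and Pappa2 were higher in injured neurons without overlap between the groups, as were 10.5% of the genes tested.

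At 8 months Pappa2 was the single gene of the 10 called (edgeR adjusted p = 0.014), against 0.957% of all genes, 0.915% higher and 0.0422% lower in injured neurons. No intact library of that age held a count, so its pooled level was at least 200-fold higher by the same floor of 3 counts. Pappa2 lost this call with limma-voom (adjusted p = 0.08) and when only the 6 libraries of that age were fitted (adjusted p = 0.424). Fst (log2 6.15 ± 1.38, adjusted p = 0.0523) did not pass with all libraries, and passed without injured replicate 1 (log2 6.72, adjusted p = 0.0036), as it did without intact 1-month replicate 1 (adjusted p = 0.05, just under the threshold) or replicate 3 (adjusted p = 0.048). Bdnf (log2 2.21 ± 0.64, adjusted p = 0.119) and Csf1 (log2 2.48 ± 0.86, adjusted p = 0.213) did not pass; without intact replicate 2 Csf1 stood at 3.68 (adjusted p = 0.103). Without intact replicate 3 the fitted change of Fst was 10.27 (adjusted p = 0.0806), and without injured replicate 2 it was 5.21 (adjusted p = 0.171) and that of Pappa2 10.07 (adjusted p = 0.0411). DESeq2 called Fst (log2 6.28, adjusted p = 0.00019) and Bdnf (log2 2.19, adjusted p = 0.022) beside Pappa2. Csf1, Pappa2, Bdnf and Il6 were higher in injured neurons without overlap. Of the genes tested, which leave out Il6, 9.38% were higher in this way.

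At 12 months Csf1, Fst and Pappa2 were called together, against 2.99% of all genes, 2.19% higher and 0.802% lower in injured neurons. Csf1 changed by 5.07 ± 1.07 on the log2 scale (SE; edgeR adjusted p = 0.0209) and Pappa2 by 6.14 ± 1.34 (adjusted p = 0.0283). Fst (adjusted p = 0.017) had no count in the 3 intact libraries, which allows up to 0.178 CPM, and its pooled level was at least 223-fold higher. All 3 calls ended without injured replicate 2 (adjusted p = 0.0635 for Csf1, 0.0547 for Fst and 0.0795 for Pappa2). Csf1 and Pappa2 also lost theirs without injured replicate 1 (log2 5.02, adjusted p = 0.0572, and log2 6.47, adjusted p = 0.0524), Fst without intact replicate 3 (adjusted p = 0.0518), and Pappa2 without injured replicate 3 (log2 5.70, adjusted p = 0.0782) or intact replicate 1 (log2 4.86, adjusted p = 0.0701). Without intact replicate 3 the fitted log2 changes were 8.28 for Csf1 (adjusted p = 0.016) and 11.5 for Pappa2 (adjusted p = 0.0411), and without intact replicate 1 Csf1 stood at 4.11 (adjusted p = 0.0323). With the replicate block Csf1 (adjusted p = 0.0665) and Pappa2 (adjusted p = 0.0631) fell short. Csf1, Fst, Pappa2, Inhbb and Artn were higher in injured neurons without overlap. This class was wide at this age and took in 19.2% of the genes tested, which leave out Artn.

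Whether the injury response differed with age was tested directly. None of the 7 tested genes was called for a difference of the injury change between ages (edgeR joint test; 0 of the 7 at an unadjusted p under 0.05, and 0 by DESeq2 and by limma-voom), and 0% of all genes were, with 1161 of the 14212 at an unadjusted p under 0.05. DESeq2 called 208 of all genes for such a difference and limma-voom 0. The smallest p of the 7 was that of Bdnf (unadjusted 0.0831), whose injury change was 1.93 log2 units larger at 8 months than at 1 month. Age alone called none of them in intact neurons (1 of the 7, Bdnf, at an unadjusted p under 0.05; DESeq2 called 1, Pappa2, and limma-voom 0), where 4.17% of all genes were called. Bdnf was 1.81 log2 units lower in intact neurons at 8 months than at 1 month (joint unadjusted p = 0.0178, adjusted p = 0.134). In injured neurons age called none either (0 at an unadjusted p under 0.05; 0 by DESeq2 and limma-voom), where 0.218% of all genes were called.

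In order of group means, Csf1 was highest in injured 12-month neurons (60.9 ± 6.68 CPM, SD, n = 3), whose libraries all lay above those of injured 8-month neurons (31.9 ± 8.91 CPM); injured 8-month and 1-month neurons (28.9 ± 10.4 CPM) overlapped, and the 3 intact groups, 2.01 to 5.76 CPM, overlapped among themselves. Fst ran from 38.8 ± 14.8 CPM in injured 12-month through 24.01 ± 11.1 CPM in injured 1-month to 11.6 ± 11.3 CPM in injured 8-month neurons, with neighbouring groups overlapping. Pappa2 had the same order with a narrower range, 26.4 ± 13.7, 22.3 ± 16.5 and 17.8 ± 15.5 CPM, and overlapping neighbours among the injured groups. Bdnf was ordered by condition, the 3 injured means (23.1 to 30 CPM) above the 3 intact ones (5.39 to 20.01 CPM), though each group overlapped the next. Per kilobase of exon, the level in injured 12-month neurons was 11.5 CPM per kb for both Csf1 and Fst, 4.82 for Bdnf, 2.56 for Pappa2, 1.3 for Inhbb, 0.583 for Fgf2, 0.209 for Artn, 0.0758 for Il6, 0.0692 for Cx3cl1 and 0.0458 for Lif. On that scale the most abundant of the 10 in intact 12-month neurons was Bdnf, at 3.22 CPM per kb.

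**Figure D2:**
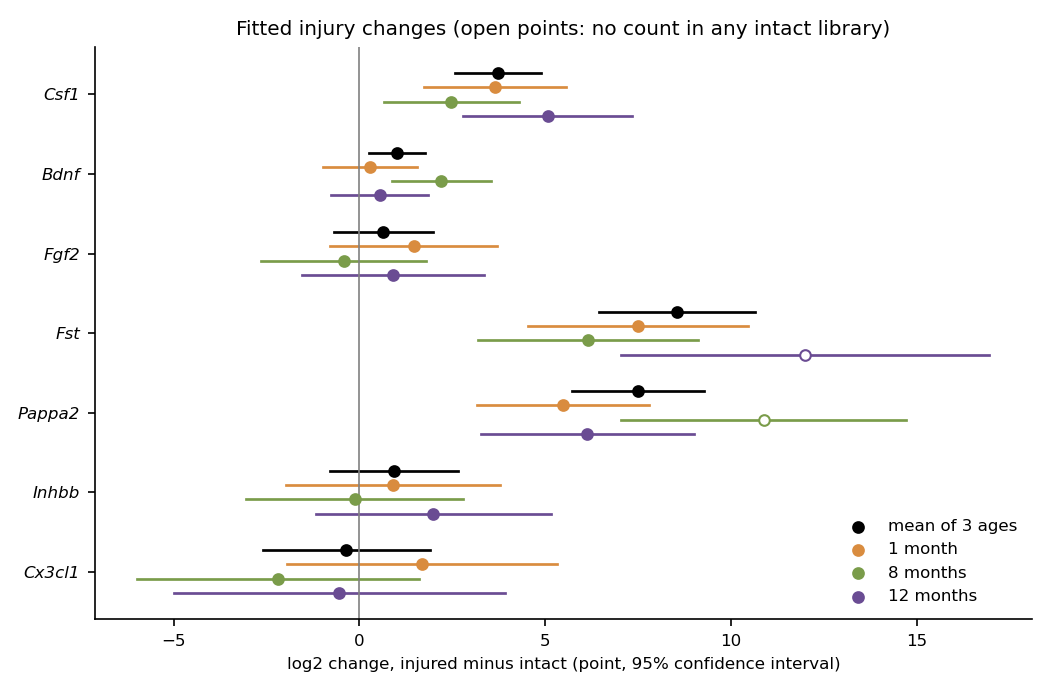
Fitted log2 changes (injured minus intact) with approximate 95% confidence intervals for the 7 tested genes, as the mean over 3 ages and at each age. Open points mark comparisons in which no intact library held a count. The intervals of Csf1, Fst and Pappa2 lie above 0 in every comparison, and those of Fgf2, Inhbb and Cx3cl1 include 0 in every one.

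Markers of other cells were read in the same libraries. The summed level of 8 satellite glia markers was 1290 to 2030 CPM in injured 1-month libraries against 97.2 to 612 CPM in intact ones. Apoe alone gave 1128 to 1809 CPM in those injured and 7.64 to 500.8 CPM in those intact libraries. At 8 months the sum was 359 to 705 against 95.9 to 526 CPM, and at 12 months 116 to 436 against 47.7 to 743 CPM. The 10 fibroblast and endothelial markers summed to 33.1 to 64.1 CPM in injured and 4.72 to 8.17 CPM in intact 1-month libraries, 19.6 to 54.4 against 2.59 to 16.7 CPM at 8 months, and 28.5 to 48.2 against 0 to 79.4 CPM at 12 months. The 12 macrophage and other immune markers summed to between 0 and 25.3 CPM in every library. The macrophage genes C1qa and C1qc had no count in any intact group nor in injured 12-month neurons. Others of the list went the other way. C1qb reached 1.05, 0.324 and 0.855 CPM in intact libraries of 1, 8 and 12 months and 0.188 to 0.728 CPM in injured 12-month ones. Lyz2 stood at 25.3 CPM in intact 12-month replicate 2. The 8 Schwann cell markers summed to 311 to 549 CPM in injured and 205 to 870 CPM in intact libraries. Pmp22 alone gave 287.8 to 519.6 CPM in injured and 95.6 to 496.4 CPM in intact ones, so the sum says little of the other markers. The median log2 change of the 6 tested Schwann markers was -1.56 over the ages, 0.81 at 1 month, -3.26 at 8 months and -2.42 at 12 months. None of the 6 was called. The 10 neuron markers lay at 6780 to 9870 CPM in injured and 5920 to 10100 CPM in intact libraries. Of these lists, Ptprz1 (satellite glia, log2 2.69, edgeR adjusted p = 0.0199), Col1a2 (fibroblast, log2 3.93, adjusted p = 0.0254) and Tubb3 (neuron, log2 0.99, adjusted p = 0.0236) rose over the ages and the neuronal splicing factor Rbfox3 fell (log2 -1.16, adjusted p = 0.0421; 2.02 with spike-in scaling). All 4 of these calls ended with the replicate block (adjusted p = 0.063, 0.0952, 0.115 and 0.189 in that order) and with the share of CT010467.1 as a covariate (adjusted p = 0.594, 0.267, 0.999 and 0.697). The part of these cells in the values of the 10 genes was not tested in the low-input libraries; in bulk samples, fewer cells of a type and less RNA per cell cannot be told apart.

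Ligands related to the 10 were counted from a list of 34, of which 18 could be tested. Over the ages 5 rose and none fell, where 5.11% of all genes tested rose and 1.07% fell. The filter admits genes that are high in 1 group only. The counts of this and the following lists are therefore not read as evidence about a list. Ccl7, Mstn, Acvr1c, Igf1, Igfbp3, Tgfa and Wnt4 were among the genes with no intact count at an age. Their fitted changes over the ages therefore depend on the prior count of the fit, as does that of Fst. The FGF family member Fgf3 had no count in the 9 intact libraries and 1308 in the injured ones, at least 362-fold higher in pooled CPM (edgeR adjusted p = 0.00056); injured 8-month replicate 1, with 0.185 CPM, was its lowest injured library, and the other 8 held 2.56 to 16.6 CPM. Inhba, the activin A subunit, also had no intact count and was at least 26.6-fold higher (adjusted p = 0.0137), with 1.16 to 2.59 CPM in injured 8-month neurons. Mstn (myostatin), another TGF-beta family ligand that follistatin binds, rose by 4.57 on the log2 scale (adjusted p = 0.0211). Its pooled ratio was 10.2 (counting interval 7.35 to 14.5). Ccl7, a monocyte chemokine, rose by 3.77 (adjusted p = 0.0225), with 4.64, 22.7 and 6.04 CPM in injured 12-month neurons. Fgf10 rose from no intact count to at most 0.967 CPM (adjusted p = 0.0473). The median log2 change of the 18 tested was 0.84, against 0.03 over all genes tested, and was the same with the genes without intact counts set at their bounds.

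Receptors of the 10 ligands were read in the same libraries. Of 21 listed, 16 were tested, 3 rose and none fell (median log2 0.29), against 5.11% and 1.07% of all genes. Acvr1, a type I receptor of the activin and BMP family, rose by 2.61 ± 0.50 (SE; edgeR adjusted p = 0.00397), and Acvr1c, a type I receptor for activin B, by 4.95 ± 0.98 (adjusted p = 0.00705). The pooled ratio of Acvr1c was 17.9 (counting interval 9.56 to 37.9). Gfra3, the artemin receptor, had a fitted change of 4.97 ± 0.89 (adjusted p = 0.00326), but its pooled ratio was only 2.11 (counting interval 1.97 to 2.26). By age that ratio was 1.24 at 1 month, 878 at 8 months from 1 intact count, and 35.2 at 12 months. For Gfra3 the intact 1-month libraries held 0.524, 19.2 and 36.5 CPM and overlapped the injured ones (50.4, 2.05 and 18.9 CPM). The intact libraries of the other ages held at most 0.599 CPM and the injured ones at least 7.59 CPM. None of the 9 tested regulators of activin and follistatin signalling was called with all libraries, and 1 had an unadjusted p under 0.05, Smad3 (log2 3.54, adjusted p = 0.0762).

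PAPPA2 acts on the IGF axis. Of 13 listed genes of that axis, 9 were tested and 3 rose over the ages (median log2 0.96), where 5.11% of all genes rose. The fitted change was above 0 for 9 of the 9 over the ages, for 9 at 1 month, 5 at 8 months and 7 at 12 months. Of all 14212 genes tested, 7483 were above 0 over the ages, 6929 at 1 month, 7177 at 8 months and 7627 at 12 months. Igfbp3, the main IGF carrier protein, rose by 5.43 ± 0.85 (SE; edgeR adjusted p = 0.00162), with a pooled ratio of 8.69 (counting interval 7.64 to 9.92). It lay at 0.246 to 5.99 CPM in intact libraries of 1 and 8 months, was absent from the 3 intact 12-month libraries, and lay at 2.68 to 34.1 CPM after injury. Pappa, the paralogue of Pappa2, rose by 2.81 ± 0.50 (adjusted p = 0.00273), from a level that was already 6.66 to 32.2 CPM in intact 1-month neurons. Igf1 rose by 4.16 ± 0.83 (adjusted p = 0.00719), with a pooled ratio of 6.2 (counting interval 5.19 to 7.47). Its intact libraries held 1.57, 0.376 and 0.807 CPM at 1 month, no count at 8 months and 7.78, 0 and 0 CPM at 12 months. Injured libraries held 6.89, 4.80 and 2.91 CPM, then 0.832, 1.94 and 4.09 CPM, then 6.27, 27.9 and 9.39 CPM, so the groups overlapped at 12 months.

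Among 29 other secreted growth factors and cytokines, 21 were tested, 2 rose and 1 fell (median log2 0.21), against 5.11% and 1.07% of all genes. Tgfa, an EGF receptor ligand, rose by 5.29 ± 0.53 (SE; adjusted p = 3.9e-05), with 2.77 to 15.9 CPM in the injured libraries and 0 to 3.09 CPM in the intact ones. Its pooled ratio was 10.4 (counting interval 8.18 to 13.3). Wnt4 rose by 4.43 ± 0.88 (adjusted p = 0.0071), with a pooled ratio of 15.7 (counting interval 8.34 to 33.2). Vegfb, a VEGF family ligand, fell by 0.91 on the log2 scale (adjusted p = 0.0171), from 5.41 to 17.4 CPM in intact to 3.83 to 11.4 CPM in injured libraries; with spike-in scaling its log2 change was 1.85, again below the shift of the median gene.

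The lists responded to the same settings as Csf1, Fst and Pappa2. With the share of CT010467.1 as a covariate no gene of the 5 lists was called. Without the 3 libraries that stand apart, 4 receptors, 6 related ligands, 3 IGF axis genes and 3 other factors rose, with 1 related ligand and 1 other factor lower, and 1 regulator of activin and follistatin signalling, Smad3, rose (log2 4.75, adjusted p = 0.0132). The receptors then included Csf1r, the receptor of CSF1 (log2 5.39, edgeR adjusted p = 0.00584), which was not called with all libraries. That fit called 1520 of all genes. With the replicate number as a block, 2 receptors (Acvr1 and Gfra3), 1 related ligand (Fgf3), 3 IGF axis genes (Igfbp3, Pappa and Igf1) and 2 other factors (Tgfa and Vgf) rose. Of the receptors and other factors, Acvr1c (adjusted p = 0.0952), Wnt4 (adjusted p = 0.0783) and Vegfb (adjusted p = 0.14) lost their calls under the block, and Vgf gained one (log2 1.95, adjusted p = 0.0239).

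**Figure D3:**
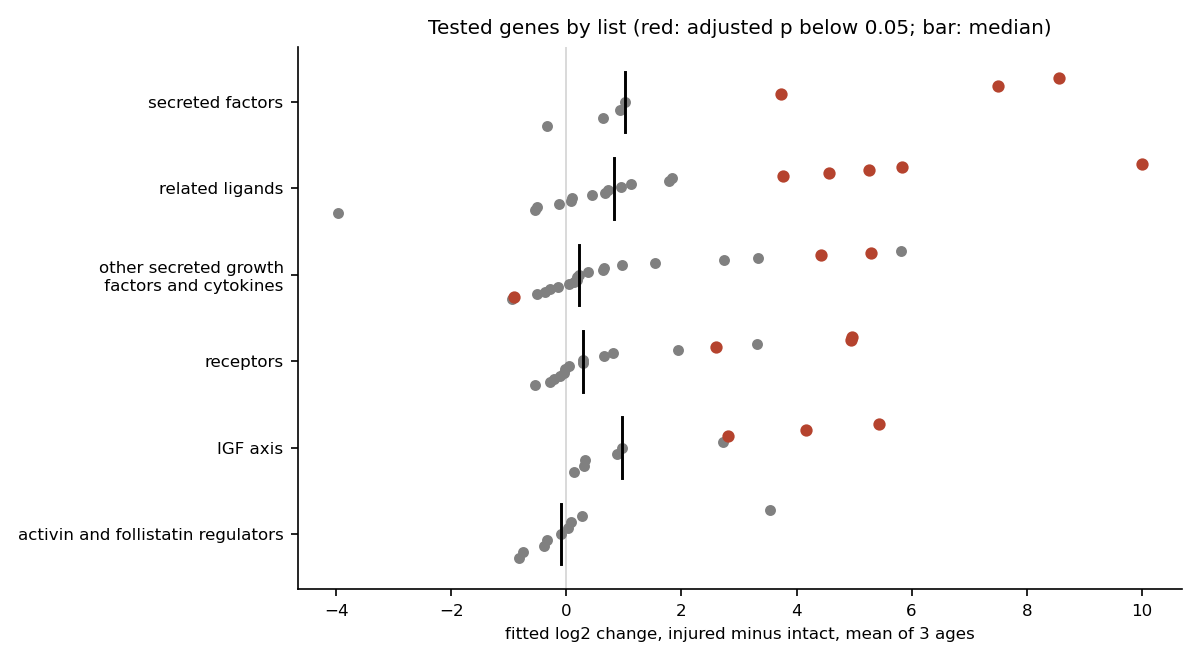
Fitted log2 changes over the 3 ages for each tested gene of the 10 secreted factors and of 5 lists of related genes; red points passed the test at an adjusted p below 0.05, grey points did not, and bars are medians. 5 of the 18 related ligands and 3 of the 9 IGF axis genes lie in red to the right, and none of the 9 activin and follistatin regulators is red. Of all genes tested, 5.11% were called higher.

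The genes whose levels followed each of these most closely across the 18 libraries were read from log2 CPM over genes with a mean of at least 5 CPM. Such correlations are descriptions: the libraries share the same injury contrast, depth and dominant feature. Fst was closest to Car1 (Pearson r = 0.983, n = 18 libraries), Slc6a4 (0.953) and Sprr1a (0.945). Pappa2 was closest to Tubb6 (0.962), Sprr1a (0.944) and Fst itself (0.932). Csf1 was closest to Il13ra1 (0.900), Rcc1 (0.891) and Fam171b (0.883), and its r with Fst was 0.781 and with Pappa2 0.837. Bdnf was closest to Ehd3 (0.854), Mdga1 (0.841) and the GDNF receptor gene Gfra1 (0.834), and Inhbb to Epb41l4a (0.915), Coq10b (0.912) and Arg2 (0.873). Fgf2 was closest to Tdrd3 (0.863), Ssx2ip (0.852) and Ddx3x (0.833). Cx3cl1 had no closer gene than Pcdh10 (0.688), followed by Jakmip3 (0.676) and Srsf2 (0.666).

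Single neurons show how these levels are spread over cells. Each of the 4 groups of cells is 1 sample, since no animal is labelled, so values are given without a test. CPM of cells is over gene counts outside CT010467.1. Of the 69 cells, 46 had at least 500000 such counts: 8 of 18 intact and 15 of 21 injured cells at 1 month, and 8 of 8 intact and 15 of 22 injured cells at 1 year. One injured 1-year cell had no count and was left out.

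At 1 month, Csf1 and Fst were high in the same few injured cells. Over all cells, Csf1 stood at 144 CPM in cells labelled injured (95% Poisson interval 141 to 148) and at 7.57 CPM in intact ones (6.70 to 8.52). Fst stood at 103 CPM (100 to 106) against 0.138 CPM (0.0447 to 0.321), and Pappa2 at 11.8 CPM (10.9 to 12.8) against 0.826 CPM (0.557 to 1.18). These intervals cover counting error only. At a fixed depth of 500000 counts, 11 of 15 injured cells had a count of Csf1 (73.3%, Clopper-Pearson 95% interval 44.9 to 92.2%) against 3 of 8 intact cells (37.5%, 8.52 to 75.5%). For Fst and for Pappa2 it was 7 of 15 (46.7%, 21.3 to 73.4%) against 1 of 8 (12.5%, 0.316 to 52.7%). In the 8 deeper injured cells named L4 alone, the medians were 167 CPM for Csf1, 189 CPM for Fst and 27 CPM for Pappa2, against 0.117, 0 and 0 CPM in the 7 named L5. Before thinning, 12, 10 and 7 of the 15 deeper injured cells had a count of Csf1, Fst and Pappa2.

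Of the injured 1-month cells, 5 had Fst at or above 100 CPM, all with names beginning with L4; this level was chosen after the values were seen. In them Fst ran from 139 to 514 CPM, Csf1 from 120 to 543 CPM and Pappa2 from 8.33 to 167 CPM. In the other 10 deeper cells of the group Fst was 7.85 CPM at most and Csf1 32.4 CPM at most. The same 5 cells carried the injury genes Sprr1a at 1430 to 8060 CPM and Atf3 at 1130 to 3630 CPM. Their Rbfox3 lay between 9.92 and 84 CPM, with a median of 14.3 CPM against 275 CPM in the other 10. Nefh, a large-fibre marker, did not set them apart. It lay between 662 and 2650 CPM in them (median 954 CPM) and between 108 and 4390 CPM in the other 10 (median 795 CPM). Calca, the CGRP gene of peptidergic nociceptors, was at 22.8 CPM at most in the 5 cells and at 7 to 26800 CPM in the other 10. The satellite glia marker Fabp7 was at most 1.67 CPM and Apoe at most 22.7 CPM in the 5 cells.

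A sixth cell, number 20 of that group, had Sprr1a at 7120 CPM with a different set of factors: Pappa2 at 113 CPM and Inhbb at 156 CPM, Csf1 at 32.4 CPM and no count of Fst. The remaining 2 L4 cells had Sprr1a at 28 and 6.33 CPM, Fst at 1.4 and 0.198 CPM and Csf1 at 5.60 and 8.70 CPM. In the 7 cells with names beginning with L5, Pappa2 had no count, Fst reached 7.85 CPM and Csf1 20.6 CPM.

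Bdnf was spread over most cells of every group. It had a count in 15 of 15 deeper injured and 7 of 8 deeper intact cells at 1 month, with medians of 66.2 and 18.8 CPM, and its range, 1.09 to 168 CPM in injured and 0 to 228 CPM in intact cells, overlapped widely. Pooled, it stood at 92 CPM (89.4 to 94.7) in injured and 63.4 CPM (60.8 to 66) in intact 1-month cells. Without 1 intact cell, number 5, which held 62.4% of the intact counts, the intact value was 28.9 CPM.

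Il6 appeared in 3 injured 1-month cells, numbers 7, 8 and 13, at 8.06, 16.6 and 39.5 CPM. All 3 have names beginning with L5 and no count of Sprr1a, and their Calca was 12800 to 24900 CPM. One intact 1-month cell, number 5, had Il6 at 3.81 CPM with Calca at 18900 CPM. The 8 deeper L4 cells had none. Lif and Artn each appeared in a single 1-month cell, injured cell 14, at 1.43 CPM from 7 counts and 2.65 CPM from 13 counts; that cell had the highest Fst of all, 514 CPM. Fgf2 came mainly from injured cell 9 (35 CPM, 84.6% of its counts in the group), the cell with the highest Csf1 and Sprr1a. Cx3cl1 had 2 counts in all 21 injured 1-month cells.

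**Figure D4:**
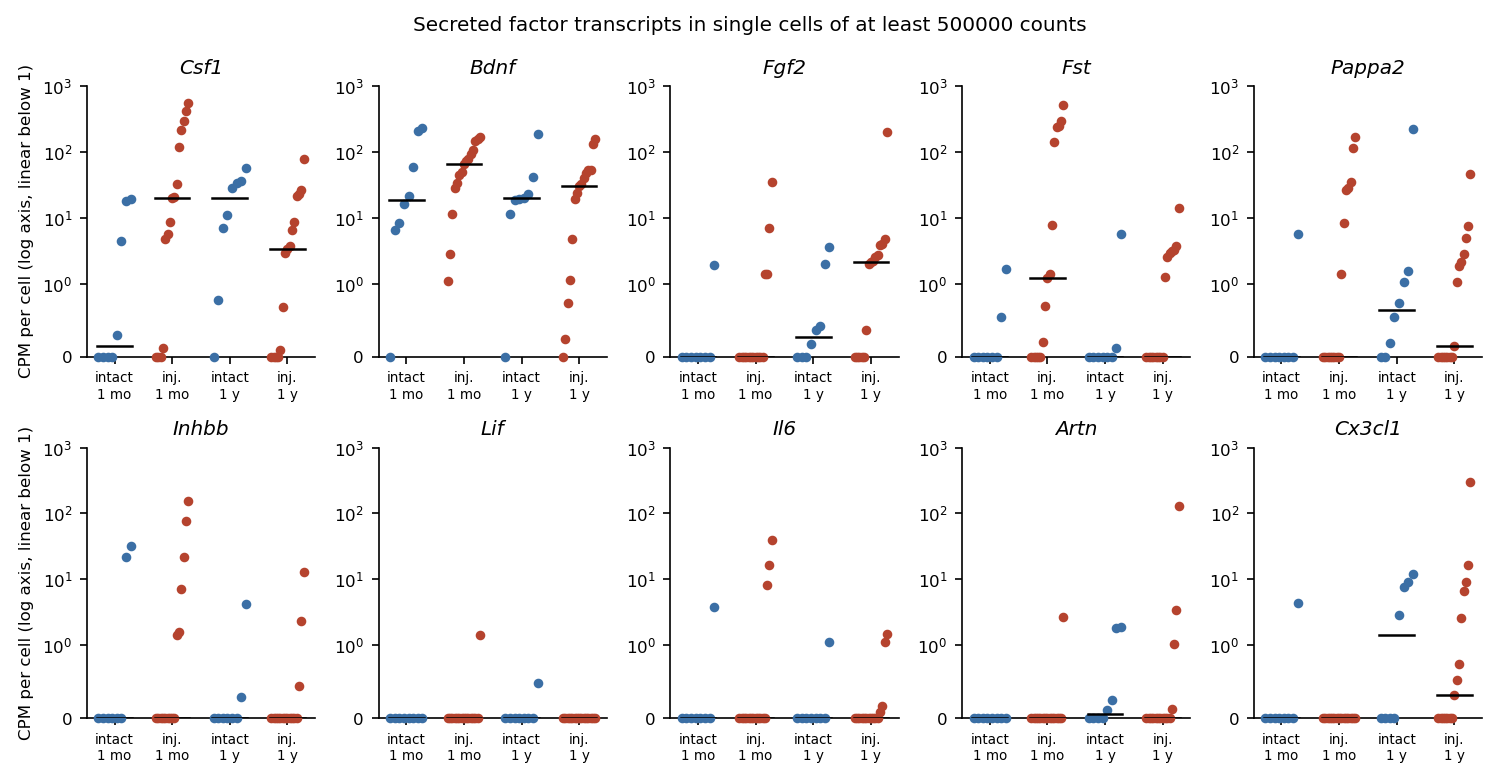
CPM of the 10 genes in each single cell with at least 500000 counts (log axis, linear below 1), 8 intact and 15 injured cells at 1 month, 8 and 15 at 1 year; bars are medians over cells. Csf1 and Fst exceed 100 CPM in 5 cells each, all in the injured 1-month group, while Bdnf is spread over all 4 groups.

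At 1 year the pooled values of the cells labelled injured did not show the pattern of the low-input libraries of 12 months. Csf1 was lower in them, 13.9 CPM (13.1 to 14.7), than in intact cells, 18.6 CPM (17.5 to 19.7). Fst was low in both, 1.49 CPM (1.25 to 1.76) and 1.07 CPM (0.814 to 1.37), 98.3% of the latter from 1 cell. Pappa2 stood at 1.94 CPM (1.67 to 2.25) in injured and 37.2 CPM (35.6 to 38.8) in intact cells; 98.9% of the intact counts came from cell 3, and the intact value without that cell was 0.469 CPM. None of the 15 deeper injured 1-year cells reached 100 CPM of Fst, and, as given above, none had more than 8.39 CPM of Sprr1a. The shallower cell 15, with 187292 counts outside the dominant feature, held Sprr1a at 1550 and Atf3 at 929 CPM, with Fst at 32 CPM (6 counts), Pappa2 at 42.7 CPM (8 counts) and Csf1 at 21.4 CPM (4 counts).

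For Artn, Cx3cl1 and Fgf2, most of the injured 1-year counts came from a single cell with little Rbfox3 and much Apoe. Cell 21 held 95% of the Artn counts (129 CPM) and 85.8% of the Cx3cl1 counts (300 CPM), with Rbfox3 at 0.489 CPM and Apoe at 13100 CPM but no count of Fabp7; without it the group stood at 0.318 CPM of Artn and 2.31 CPM of Cx3cl1. Cell 19 held 79% of the Fgf2 counts (202 CPM), with Apoe at 46800, Fabp7 at 1350 and Rbfox3 at 1.33 CPM; without it Fgf2 stood at 2.30 CPM. Intact 1-year cells held Cx3cl1 at 2.83 CPM (2.40 to 3.30), in 4 of 8 cells, and Fgf2 at 0.675 CPM (0.478 to 0.927). The Csf1 maximum of the injured 1-year cells, 78.7 CPM in cell 20, also came with Apoe at 4480, Fabp7 at 122 and Rbfox3 at 0.56 CPM. Neuronal genes were present in all 3 of these cells: in cells 19, 20 and 21 Snap25 stood at 172, 487 and 228 CPM, Nefh at 174, 312 and 727 CPM and Calca at 289, 274 and 1790 CPM.

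**Figure D5:**
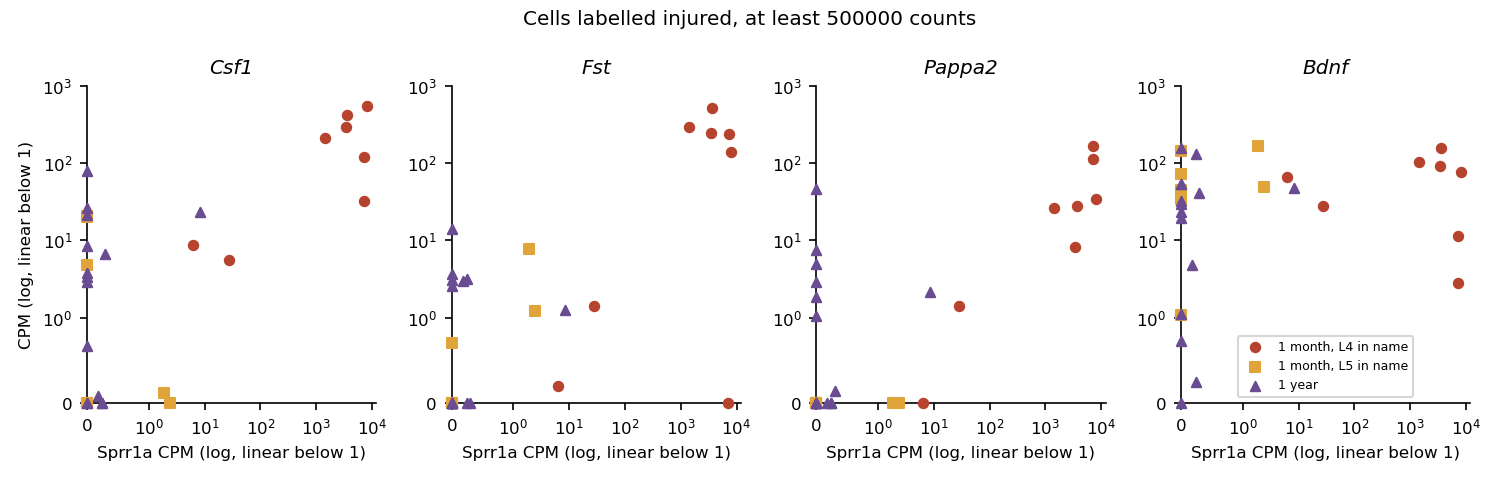
CPM of Csf1, Fst, Pappa2 and Bdnf against Sprr1a in each cell labelled injured with at least 500000 counts (log axes, linear below 1): circles and squares are 1-month cells with names beginning with L4 and L5, triangles are 1-year cells. Of the circles, 6 lie between 1430 and 8060 CPM of Sprr1a, 5 of them with Fst between 139 and 514 CPM, and the Bdnf points show no such split.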

How the data were processed

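The deposited table holds raw counts of read pairs per gene, with no normalization by the authors: per the file headers they were made with featureCounts 1.5.2 in paired mode, without strand, over exons of GENCODE vM16 with ERCC spike-ins. The submitters' processing notes name STAR, Trim Galore and mm10, with no versions. All 87 count columns were matched to sample names (0 unused), and 0 table entries named no gene. Some names were deposited more than once, and each was counted once. Exon lengths (unit: other, deposited in the same table) were used for per-kilobase levels. Overlapping and antisense genes cannot be told apart.

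Spike-ins were removed. Tests on the 18 low-input libraries used edgeR 4.0.16 (R 4.3.3): filterByExpr, TMM, robust quasi-likelihood, 1 mean for each of 6 groups, 14212 genes tested, Benjamini-Hochberg over all of them, common biological coefficient of variation 0.543. The script was tested on simulated data. Single cells were summed over counts outside CT010467.1 per group, or thinned to 500000 counts. The 10 genes and all lists were chosen with earlier results of these data known. Text names all 10 genes, list members called over the ages (or the smallest p where none was), and the 3 genes most like each. A list of genes that process secreted factors, and 1 marker in single cells, are not reported here. Promoters are from RefSeq, matched by symbol for 9 of 10 genes.

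The labels state no pairing. Same-numbered libraries deviated together at 1 month (correlations of intact and injured deviations 0.206, 0.218 and 0.485 over 1669 genes), so block values are given there; at 8 months they were -0.498, -0.352 and 0.106 and at 12 months -0.085, -0.098 and 0.082. Alternatives were DESeq2 1.42.0, limma-voom (limma 3.58.1), other scalings, no filter, the replicate block, only the libraries compared, and leaving out each library; a covariate and the leaving out of 3 libraries were added after seeing the data.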

Additional observations from a re-analysis of the deposited data

Results flagged for a closer look

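Among the 8 intact 1-year cells, the values of 6 of the 10 genes had 1 cell far from the rest, by Dixon's ratio at its 95% critical value; chance flags about 1 in 20 such groups of normal values, a rate that does not hold for sparse counts. Pappa2 was 221 CPM in cell 3, from 2072 counts, while the next cell had 1.55 CPM. That cell also had the highest Inhbb, 4.27 CPM, against 0.292 CPM in the next. Bdnf was 184 CPM in cell 1 and 42 CPM in the next cell. Fst was 5.73 CPM in cell 4, from 59 counts, against 0.124 CPM. The same cell held all 5 Lif counts of the group (0.486 CPM). Il6 was seen in cell 5 alone (1.10 CPM, 9 counts). For Lif and Il6, where every other cell was at 0, the ratio is 1 by construction.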

How the results depend on the processing

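Over the ages, 3 of the 10 genes were called in the main analysis and in 25 of 27 alternatives the count stayed at 3 or 4; it was 7 with ERCC scaling and 0 with the share of CT010467.1 as a covariate, and 3 to 4 without any 1 library. At 1 month the count was 1 in the main analysis, 2 with ERCC scaling, 3 without the filter, 3 with DESeq2, 3 with only the libraries compared, 0 with the covariate, 0 with the replicate block, and 0 to 3 without 1 library. At 8 months it was 1, then 2 with ERCC scaling, 4 without the filter, 3 with DESeq2, 0 with limma-voom, 0 with only the libraries compared, 0 with the covariate, 2 without the 3 libraries that stand apart, and 1 to 2 without 1 library. At 12 months it was 3, then 7 with ERCC scaling, 1 with the replicate block, 1 with only the libraries compared, 0 with the covariate, and 0 to 3 without 1 library. The injury-by-age count was 1 without the filter, and the count for age in intact neurons was 5 with ERCC scaling, 3 without the filter and 1 with DESeq2. Cx3cl1 reversed with ERCC scaling, to 2.63 over the ages and 4.55 at 12 months, where that scaling moved the median of all genes by 2.86 and 5.28. Calls over all genes fell from 878 to 329 with the replicate block and 11 with the covariate over the ages, from 33 to 5 with the block at 1 month, and rose to 1548 with DESeq2 over the ages. ERCC scaling called 13493 genes over the ages, 50 at 1 month, 631 at 8 months, 13675 at 12 months and 12158 for age in intact neurons, of 14212 tested, so the counts of 7, 2, 2, 7 and 5 with it stand against those. The block changed no call of Csf1, Fst or Pappa2 over the ages. The causes were not tested. Of 240 alternative values for single cells, 105 lay outside the counting interval of the main value. Depth limits what can be said of Lif, Il6 and Artn, whose low-input counts were 1, 3 and 12 in intact libraries.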
